A study of Mus musculus with 9 samples.

Results

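Mitochondrial ribosomal protein genes were taken as the genes of the count table whose mouse symbol is Mrpl or Mrps followed by a number and, in the Mrps18 family, a letter, with pseudogenes left out. The rule found 78 genes of 56980 gene identifiers, 49 with an Mrpl and 29 with an Mrps symbol. They lie on 17 chromosomes, with 11 on chromosome 11. Their RNA was read in 9 libraries of polyadenylated RNA from mouse oligodendrocyte progenitor cells (OPCs), the dividing precursors of myelin-forming cells, grown as mutant primary lines in SATO medium with 10 ng/mL PDGF-AA. In all 3 groups the cells were Trp53 -/-, so no group carries p53. The BB-p53n EZH2i group (3 libraries) is labelled as overexpressing PDGF-BB and received the EZH2 inhibitor tazemetostat at 5 µM for 48 h. The BB-p53n DMSO group (3 libraries) carries the same PDGF-BB label and received the vehicle DMSO. The p53n group (3 libraries) had neither PDGF-BB nor, per the labels, vehicle, so PDGF-BB and DMSO cannot be told apart in the comparison of BB-p53n DMSO with p53n. The labels say neither how PDGF-BB was introduced nor whether replicates are separate cultures, so p-values speak only of the spread among these 9 libraries and that spread may be technical.

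The mitochondrial ribosome translates the few mRNAs of the mitochondrial genome, all of which encode subunits of the respiratory chain and the ATP synthase. Its rRNAs are made inside the organelle, whereas its proteins are encoded in the nucleus, made in the cytosol and imported. It has a small subunit that holds the mRNA and decodes it and a large subunit that joins the amino acids. Many of its proteins descend from bacterial ribosomal proteins and others do not. Here "bacterial relative" means a relative among bacterial ribosomal proteins, so genes counted as without one may resemble other bacterial proteins. EZH2 methylates lysine 27 of histone H3, a mark of silenced genes, and PDGF-BB activates PDGF receptors, which drive division of OPCs.

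By role, 26 of the 78 genes encode small-subunit proteins, 16 of them with a bacterial relative and 10 without. Another 51 encode large-subunit proteins, 30 with a bacterial relative and 21 without, and these include Mrps18a and Mrps30, which despite their symbols encode large-subunit proteins. Mrps18a and Mrps18b, copies of the S18 family at positions of their own in the ribosome, are counted with the proteins without a bacterial relative. The last, Mrps36, keeps the symbol of a ribosomal protein but encodes a subunit of the alpha-ketoglutarate dehydrogenase complex. Enough counts for testing were found for 77. Mrpl53 had 0 counts in every library, and 3 counts, the limit that a count of 0 allows, correspond to 0.0868 to 0.154 CPM (counts scaled by the size of each library). Of the exon bases of Mrpl53, 88.0% are shared with other annotated genes, and fragments that fall on more than 1 gene were not assigned by the authors' counting, so the 0 says little about its expression.

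Total counts ranged from 19471768 to 34557109 per library. Pdgfb, the mouse gene for PDGF-B, was barely detected in any group: it averaged 0.198 CPM in BB-p53n EZH2i, 0.160 CPM in BB-p53n DMSO and 0.0139 CPM in p53n libraries, with 30 counts in all, too few for testing. The sequence of the PDGF-BB that was overexpressed is not given in the labels, so these counts do not test the label, and "with PDGF-BB" stands here for the labelled difference between the lines. The 7 OPC markers checked all had counts in every group and summed to between 4623 and 4893 CPM in BB-p53n EZH2i, 6000 and 6087 CPM in BB-p53n DMSO and 7537 and 8130 CPM in p53n libraries. Sox10, a factor that defines the oligodendrocyte lineage, averaged 459 CPM in BB-p53n EZH2i and 299 CPM in BB-p53n DMSO but 2.21 CPM in p53n libraries. Cspg4 averaged 677, 509 and 287 CPM in BB-p53n EZH2i, BB-p53n DMSO and p53n libraries, Olig2 894, 805 and 534 CPM and Olig1 1538, 1019 and 999.7 CPM. Olig1 was not called with PDGF-BB, nor Olig2 under EZH2 inhibition. The remaining OPC markers ran the other way: Pdgfra averaged 514 CPM in BB-p53n EZH2i, 980 CPM in BB-p53n DMSO and 1492 CPM in p53n libraries, Ptprz1 averaged 625, 2308 and 2684 CPM in the same groups, and Gpr17 averaged 57.8, 132 and 1904 CPM. The 5 markers of differentiating oligodendrocytes summed to between 9.99 and 13.6 CPM in BB-p53n EZH2i, 16.1 and 20.5 CPM in BB-p53n DMSO and 138 and 162 CPM in p53n libraries. The 5 astrocyte markers summed to 271 to 292 CPM in BB-p53n EZH2i, 377 to 405 CPM in BB-p53n DMSO and 595 to 710 CPM in p53n libraries, and the 5 neuronal markers to 174 to 179 CPM in BB-p53n EZH2i, 298 to 318 CPM in BB-p53n DMSO and 536 to 544 CPM in p53n libraries. The drop in the neuronal sum under EZH2 inhibition was mainly that of Dcx (54.7 CPM in BB-p53n EZH2i and 212 CPM in BB-p53n DMSO), while Tubb3 (85.4 and 37.1 CPM) and Rbfox3 (6.17 and 1.33 CPM) were called higher under EZH2 inhibition. With the trend removed, Dcx (-0.39) was still called lower and Tubb3 (0.30) and Rbfox3 (1.61) higher. The astrocyte marker Slc1a3 went from lower (-0.47) to higher (0.20) under EZH2 inhibition when the trend was removed. Markers of microglia, endothelium, fibroblasts and mural cells stayed at or below 14.2 CPM in sum. Aqp4 (astrocytes), Cx3cr1 (microglia) and Cdh5 (endothelium) had no counts in BB-p53n EZH2i, and Cldn5 and Cdh5 (endothelium) and Lum (fibroblasts) none in p53n libraries. Xist, expressed from the inactive X chromosome of female cells, averaged 8.87 CPM in BB-p53n EZH2i, 55.3 CPM in BB-p53n DMSO and 2981 CPM in p53n libraries, and the Y-linked Ddx3y averaged 8.53 CPM in BB-p53n EZH2i, 46.6 CPM in BB-p53n DMSO and 0.412 CPM in p53n libraries, so the PDGF-BB lines and the p53n lines differ in sex-linked genes as well as in PDGF-BB. Trp53 transcripts averaged 14.3 CPM in BB-p53n EZH2i, 13.6 CPM in BB-p53n DMSO and 7.34 CPM in p53n libraries, which does not test the label because the deleted part of the gene is not given. The part of these differences in the results on ribosomal protein genes was not tested. In such bulk libraries, fewer cells of a type and less RNA per cell cannot be told apart.

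The share of all counts that fell on the 78 genes was highest in the BB-p53n EZH2i libraries. It was 0.447%, 0.464% and 0.459% in BB-p53n EZH2i, 0.272%, 0.288% and 0.284% in BB-p53n DMSO, and 0.222%, 0.206% and 0.225% in p53n libraries. No library of a group overlapped a library of another. Counts on genes of the mitochondrial chromosome ran the other way, at 1.43% ± 0.100 in BB-p53n EZH2i, 2.54% ± 0.0940 in BB-p53n DMSO and 5.28% ± 0.717 in p53n (SD, n = 3 each). Genes of the cytosolic ribosomal proteins took 1.01% ± 0.0668 of the counts in BB-p53n EZH2i, 0.552% ± 0.0238 in BB-p53n DMSO and 0.615% ± 0.0461 in p53n (SD, n = 3 each), so their share was also highest in BB-p53n EZH2i but was lower in BB-p53n DMSO than in p53n on average.

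**Figure D1:**
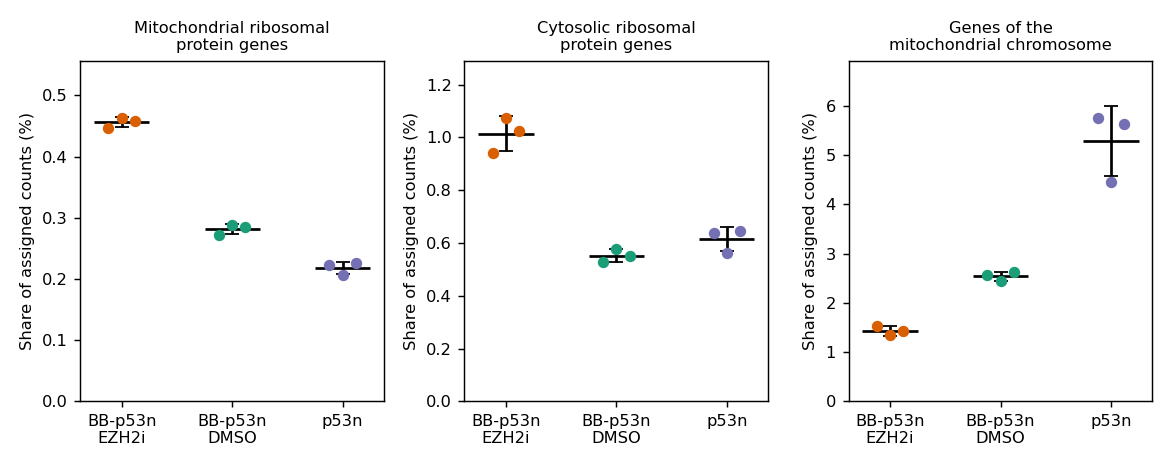
Share of assigned counts (%) in each library for mitochondrial ribosomal protein genes, cytosolic ribosomal protein genes and genes of the mitochondrial chromosome. Points are libraries, and bars give the mean and SD of 3 libraries. The mitochondrial ribosomal protein genes averaged 0.456% in BB-p53n EZH2i, 0.281% in BB-p53n DMSO and 0.218% in p53n libraries.

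The first comparison asked what PDGF-BB does in p53-null OPCs. In BB-p53n DMSO relative to p53n libraries most mitochondrial ribosomal protein genes were modestly higher: 59 of the 77 tested rose, 1 fell and 17 did not pass the test (edgeR's quasi-likelihood test, Benjamini-Hochberg adjusted over 17001 genes, threshold 0.05). Over all genes tested, 35.3% were called higher and 34% lower. The median log2 fold change of the 77 was 0.42, with quartiles at 0.23 and 0.59, against -0.02 for all genes tested. In 62 genes all 3 BB-p53n DMSO libraries were above all 3 p53n libraries and in 4 all were below, where 38.4% and 37.7% of all genes tested did so. Changes of at least 2-fold were seen in 6 genes, all higher, and 12.7% of all genes tested were called at least 2-fold higher.

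Genes of both subunits took part in the rise. In the small subunit 20 of 26 genes were called higher and none lower (median log2 fold change 0.45). In the large subunit 39 of the 50 tested genes were called higher and 1 lower (median 0.36). Genes with a bacterial relative had 36 of 46 higher and a median of 0.35, and genes without one had 23 of 30 higher and a median of 0.48. The difference between these classes was not tested.

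**Figure D2:**
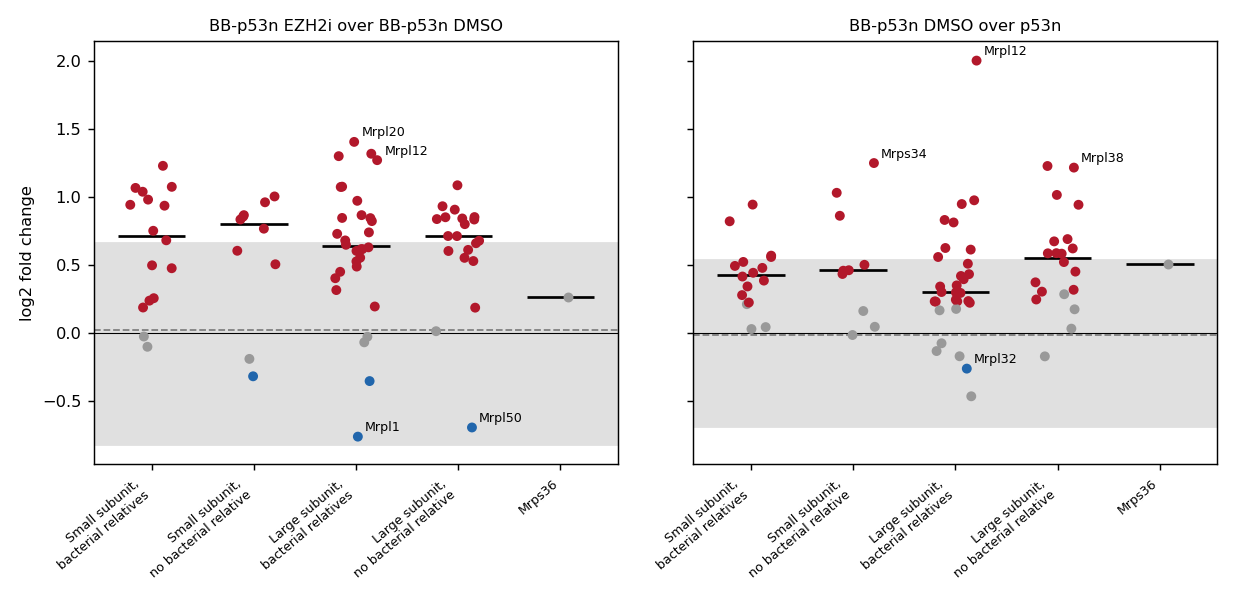
Log2 fold changes of the 77 tested genes by subunit and by presence of a relative among bacterial ribosomal proteins, for BB-p53n EZH2i over BB-p53n DMSO (left) and BB-p53n DMSO over p53n (right). Red points were called higher, blue lower and grey neither, short black lines are class medians, the dashed line and grey band are the median and quartiles of all genes tested. The 50 tested large-subunit genes had a median of 0.68 on the left and 0.36 on the right, and Mrpl12 was the highest point on the right at 2.00.

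The largest rise was that of Mrpl12, whose protein belongs to the stalk of the large subunit that receives translation factors and is the relative of bacterial L7/L12. Mrpl12 had 90.8, 101 and 83.7 CPM in BB-p53n DMSO libraries, against 22.3, 20.8 and 25.6 CPM in p53n libraries. The groups lay far apart, with the lowest BB-p53n DMSO library well above the highest p53n library, and the log2 fold change was 2.00 (SE 0.102, edgeR adjusted p = 5.35e-12). The other members near the base of the stalk changed less: Mrpl10 rose by 0.63 (SE 0.0746, adjusted p = 2.58e-07) and Mrpl11 by 0.34 (SE 0.0834, adjusted p = 0.00112) on the log2 scale.

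The other genes past 2-fold are all among those counted as without a bacterial relative. Mrps34, which in mice stabilises the small subunit, had 6.96, 8.44 and 6.23 CPM in BB-p53n DMSO libraries, against 2.60, 3.33 and 3.20 CPM in p53n libraries. The groups did not overlap and the log2 fold change was 1.25 (SE 0.178, adjusted p = 3.03e-06), but 77.8% of its exon bases are shared with Mapk8ip3 or Nme3, so its counts come from the remainder. Mrpl41, a large-subunit protein, had 17.9, 17.8 and 21.6 CPM in BB-p53n DMSO libraries, against 8.47, 7.08 and 8.83 CPM in p53n libraries. Again every BB-p53n DMSO library was above every p53n library, with a log2 fold change of 1.23 (SE 0.118, adjusted p = 1.11e-08). Mrpl38, another large-subunit protein, had 66.0, 65.3 and 66.2 CPM in BB-p53n DMSO libraries, against 30.9, 26.7 and 27.2 CPM in p53n libraries, a log2 fold change of 1.22 (SE 0.0802, adjusted p = 2.84e-11). Its 3 BB-p53n DMSO libraries were nearly equal. Mrpl54, also of the large subunit, reached 1.02 (SE 0.0939, adjusted p = 5.92e-09).

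The Mrps18 family holds 3 paralogs of the bacterial protein S18, of which Mrps18c is the direct counterpart. Mrps18b had 15.2, 15.8 and 17.8 CPM in BB-p53n DMSO libraries, against 8.16, 9.08 and 6.60 CPM in p53n libraries. These groups did not overlap (log2 fold change 1.03, SE 0.121, adjusted p = 2.07e-07), and 30.5% of its exon bases are shared with Gm16279. Mrps18a, the paralog found in the large subunit, rose by 0.58 (SE 0.0772, adjusted p = 1.11e-06). Mrps18c, a small-subunit protein like Mrps18b, had 5.52, 4.56 and 3.82 CPM in BB-p53n DMSO libraries, against 4.48, 3.33 and 4.16 CPM in p53n libraries, so its groups overlapped (log2 fold change 0.21, SE 0.185, adjusted p = 0.316).

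Other members with a particular role were higher with PDGF-BB. Mrpl58, a peptidyl-tRNA hydrolase that frees stalled mitochondrial ribosomes, changed by 0.67 (adjusted p = 1.35e-07) and Mrpl44, which resembles RNase III, by 0.69 (adjusted p = 1.65e-06) on the log2 scale. Mrps12, at the decoding centre of the small subunit, changed by 0.49 (adjusted p = 2.52e-05). Mrps30 had 33.9, 40.8 and 39.0 CPM in BB-p53n DMSO libraries, against 34.3, 31.6 and 29.8 CPM in p53n libraries, and its groups overlapped although it passed the test (log2 fold change 0.25, SE 0.0987, adjusted p = 0.0320). Without p53n replicate 2, BB-p53n DMSO replicate 2 or BB-p53n DMSO replicate 3 it did not pass, with adjusted p of 0.0718, 0.112 and 0.0724. Mrps36, the dehydrogenase subunit, was near the limit of detection at 0.299, 0.503 and 0.864 CPM in BB-p53n DMSO libraries, against 0.521, 0.250 and 0.379 CPM in p53n libraries (adjusted p = 0.359).

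Few members were lower. Mrpl32, whose precursor is cut by the m-AAA protease on its way into the ribosome, was the one called, with 27.3, 26.5 and 29.8 CPM in BB-p53n DMSO libraries, against 33.9, 30.2 and 36.1 CPM in p53n libraries. The groups did not overlap but lay close (log2 fold change -0.26, SE 0.100, adjusted p = 0.0261), and the call was lost when p53n replicate 1 or 3 or BB-p53n DMSO replicate 1 or 2 was left out, with log2 fold changes from -0.23 to -0.12. Mrpl23, at the exit of the peptide tunnel, had the lowest log2 fold change of all, -0.47 (SE 0.215), without passing the test (adjusted p = 0.0604), and it passed without BB-p53n DMSO replicate 3 (-0.66, adjusted p = 0.0219). Mrpl48, Mrpl24 and Mrpl9 had log2 fold changes of -0.17, -0.17 and -0.13 and did not pass it either, although Mrpl24 did without p53n replicate 2 (-0.21, adjusted p = 0.0478).

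Mrpl23 and Mrpl48 have processed copies elsewhere in the genome that were counted under names of their own, and fragments may be split between a gene and its copy. Mrpl23 received 630 counts over the 9 libraries and the pseudogene Mrpl23-ps1 6697. Mrpl23-ps1 had 25.2, 24.8 and 24.2 CPM in BB-p53n DMSO libraries, against 12.9, 11.99 and 11.9 CPM in p53n libraries, a log2 fold change of 1.01 (adjusted p = 9.57e-09) where Mrpl23 itself was at -0.47. Mrpl48-ps, with 2340 counts beside 4487 for Mrpl48, was lower (log2 fold change -0.38, adjusted p = 0.0176). Mrps36 received 129 counts, against 1919 for Mrps36-ps1 and 502 for Mrps36-ps2. The values of Mrpl23, Mrpl48 and Mrps36 are uncertain for this reason; without these 3 genes, 59 of 74 rose and 1 fell. Among the 45 tested genes that share no exon base with another gene, 34 rose and 1 fell.

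Sequence before the transcription start is shown for 5 of these genes, because members called in different directions could be set side by side: the largest riser with PDGF-BB (Mrpl12), the riser of the Mrps18 family (Mrps18b), 1 of the largest risers under EZH2 inhibition (Mrpl14), the gene that fell most under EZH2 inhibition (Mrpl1) and the gene that fell with PDGF-BB (Mrpl32). Each runs from 250 bases before to 50 bases after the start, 5′ to 3′ on the gene's strand, from RefSeq on GRCm38.p6. Capitals mark matches, on either strand, to GCGCANGCG (NRF1), CCGGAAG (ETS factors such as GABPA), AAGATGGC (YY1) or CACGTG (E-box, bound by MYC and others). The regions are chr11:120484387-120484686 on the + strand for Mrpl12, chr17:35916391-35916690 on the - strand for Mrps18b, chr17:45686099-45686398 on the + strand for Mrpl14, chr5:96209865-96210164 on the + strand for Mrpl1 and chr13:14612988-14613287 on the - strand for Mrpl32.
Mrpl12: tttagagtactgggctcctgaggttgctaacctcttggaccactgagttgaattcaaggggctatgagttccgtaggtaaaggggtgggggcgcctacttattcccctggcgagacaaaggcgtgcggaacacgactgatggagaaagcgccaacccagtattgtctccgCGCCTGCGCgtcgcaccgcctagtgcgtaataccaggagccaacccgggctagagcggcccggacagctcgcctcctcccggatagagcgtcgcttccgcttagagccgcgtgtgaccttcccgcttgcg
Mrps18b: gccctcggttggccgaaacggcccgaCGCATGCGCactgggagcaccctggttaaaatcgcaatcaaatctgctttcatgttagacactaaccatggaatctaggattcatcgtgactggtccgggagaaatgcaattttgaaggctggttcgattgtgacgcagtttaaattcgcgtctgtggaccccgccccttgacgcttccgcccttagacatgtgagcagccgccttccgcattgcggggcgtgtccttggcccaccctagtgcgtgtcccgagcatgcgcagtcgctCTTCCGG
Mrpl14: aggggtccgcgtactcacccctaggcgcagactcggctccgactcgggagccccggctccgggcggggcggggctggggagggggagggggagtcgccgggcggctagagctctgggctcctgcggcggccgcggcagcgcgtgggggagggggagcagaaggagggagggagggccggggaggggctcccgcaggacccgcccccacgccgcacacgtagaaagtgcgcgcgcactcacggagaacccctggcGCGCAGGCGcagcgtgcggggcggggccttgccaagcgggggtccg
Mrpl1: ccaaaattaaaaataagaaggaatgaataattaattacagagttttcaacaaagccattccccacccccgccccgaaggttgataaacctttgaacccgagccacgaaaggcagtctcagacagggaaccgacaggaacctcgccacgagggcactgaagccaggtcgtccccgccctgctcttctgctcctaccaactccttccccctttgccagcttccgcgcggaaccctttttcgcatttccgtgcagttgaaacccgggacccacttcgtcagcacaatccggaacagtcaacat
Mrpl32: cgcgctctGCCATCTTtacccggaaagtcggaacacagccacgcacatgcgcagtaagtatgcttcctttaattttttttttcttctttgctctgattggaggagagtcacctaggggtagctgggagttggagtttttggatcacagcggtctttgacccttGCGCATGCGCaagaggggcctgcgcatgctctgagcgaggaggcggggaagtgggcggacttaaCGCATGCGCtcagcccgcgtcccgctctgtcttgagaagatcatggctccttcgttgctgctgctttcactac

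The NRF1 word stands in the windows of Mrpl12, Mrps18b, Mrpl14 and Mrpl32, an ETS word in that of Mrps18b and a YY1 word in that of Mrpl32, while the Mrpl1 window holds none of the 4. A window was found for 69 of the 78 genes. NRF1 words were present in 16 of the 69 (23.2%), against 14.4% of 11231 other tested genes and 7.03% of all 27025 genes with a window. ETS words were present in 26 (37.7%), against 18.6% and 9.93%, and YY1 words in 12 (17.4%), against 4.94% and 3.19%. At least 1 of these 3 words was present in 44 genes (63.8%), against 32.7% and 17.8%. The 3 pooled words are those more frequent in members than in other tested genes, and the less frequent E-box and GC box were left out. The NRF1 word was also shortened by a base after its counts were known, so the pooled excess is partly built in. The E-box was found in 5 (7.25%), against 11.4% and 8.09%, and the GC box GGGCGG, not capitalised, in 34 (49.3%), against 68.1% and 38.2%. Within members, ETS and GC box matches overlapped in Mrpl17 and Mrps16, and no other pair of words did. A match to such a short word is a description of the sequence, and whether the words go with the changes in expression was not tested.

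Genes around Mrpl12 were also higher with PDGF-BB. Mrpl12 lies near the end of chromosome 11 (chr11:120375439-120379891, + strand, GRCm39), and the 66 other tested genes within 1 Mb of it had a median log2 fold change of 1.33 for BB-p53n DMSO over p53n, with the 10th and 90th percentiles at 0.10 and 2.28. Of these neighbours 78.8% were below the 2.00 of Mrpl12. Mrpl38 (chr11:116022643-116029694, - strand), also on chromosome 11, had 67 such neighbours with a median of 0.33, and 89.6% of them were below its 1.22. Of the 11 members on chromosome 11, 10 rose (median log2 fold change 0.67), and over all 1301 tested genes of that chromosome 53.2% rose and the median was 0.38. Of the 63 tested members on chromosomes other than 11 and 14, 46 rose and the median was 0.39. On chromosome 14, where 18.8% of 568 tested genes rose and their median was -0.49, all 3 members rose (Mrps16, Mrpl52 and Mrpl57, median 0.34), but with the GC and length trend of each library removed only Mrpl57 (0.48) was still called, and Mrps16 (0.17) and Mrpl52 (0.06) were not. Mrpl52 had a log2 fold change of 0.30 while the median of its 38 neighbours was -0.93. The part of position in the members' values was not tested.

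**Figure D3:**
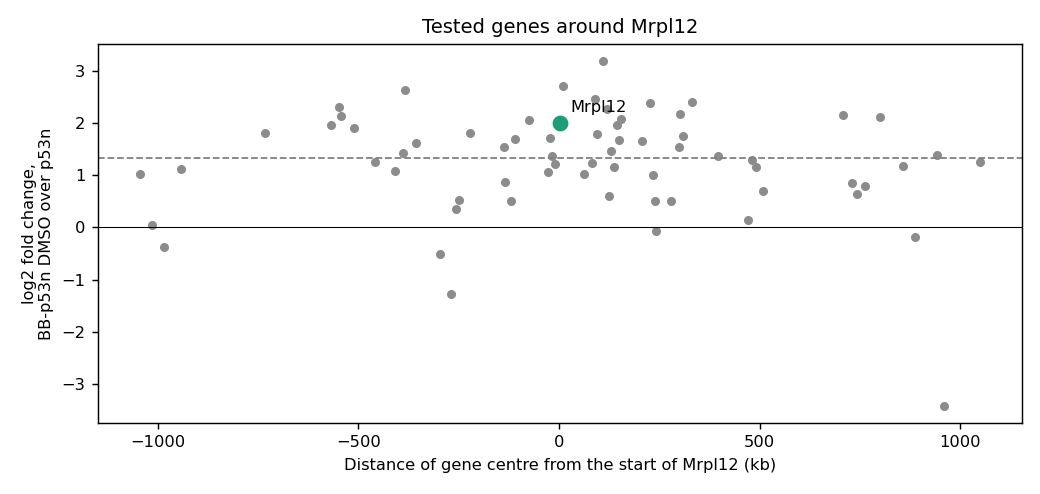
Log2 fold change of BB-p53n DMSO over p53n for tested genes around Mrpl12, against the distance of each gene's centre from the start of Mrpl12 (kb). The green point is Mrpl12 at 2.00, grey points are the 66 neighbours, and the dashed line is their median of 1.33, well above the black line at 0.

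The second comparison asked what inhibition of EZH2 does in PDGF-BB cells. In BB-p53n EZH2i relative to BB-p53n DMSO libraries, 66 of the 77 tested genes rose, 4 fell and 7 did not pass the test, while 37.3% of all genes tested were called higher and 35.6% lower. The median log2 fold change was 0.68 for the 77 genes and 0.02 for all genes tested. In 66 genes all EZH2i libraries were above all DMSO libraries and in 3 all were below, against 38.4% and 36.9% of all genes tested. At least 2-fold rises were called in 12 genes, against 10.2% of all genes tested. In the small subunit 22 of 26 rose and 1 fell (median 0.76), and in the large subunit 44 of 50 rose and 3 fell (median 0.68).

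The 5 largest rises were in genes with a bacterial relative. Mrpl20 (chr4:155887335-155894432, + strand, GRCm39), a large-subunit protein, had 141, 147 and 163 CPM in EZH2i libraries, against 56.7, 59.2 and 54.5 CPM in DMSO libraries. The EZH2i libraries all stood above the DMSO libraries with a wide gap, and the log2 fold change was 1.41 (SE 0.0812, adjusted p = 7.96e-12). Mrpl28, another large-subunit protein, had 123, 160 and 151 CPM in EZH2i libraries, against 57.5, 59.98 and 56.1 CPM in DMSO libraries (log2 fold change 1.32, SE 0.0862, adjusted p = 4.42e-11). Mrpl14, which lies at the interface of the subunits, had 40.6, 46.0 and 47.0 CPM in EZH2i libraries, against 18.2, 18.8 and 17.2 CPM in DMSO libraries (log2 fold change 1.30, SE 0.0900, adjusted p = 9.99e-11). Both genes had non-overlapping groups with the lowest EZH2i value in replicate 1. Mrpl12 had 191, 238 and 237 CPM in EZH2i libraries, against 90.8, 101 and 83.7 CPM in DMSO libraries (log2 fold change 1.27, SE 0.0951, adjusted p = 1.43e-09). Mrps24, the relative of bacterial S3 in the small subunit, had 66.6, 88.0 and 84.6 CPM in EZH2i libraries, against 34.6, 34.2 and 32.97 CPM in DMSO libraries (log2 fold change 1.23, SE 0.101, adjusted p = 1.78e-09). These genes lie on different chromosomes except Mrpl28 and Mrpl14, both on chromosome 17, and Mrpl12 and Mrps24, both on chromosome 11.

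Of the members with a particular role, Mrps12 changed by 1.07, Mrpl11 by 1.07 and Mrps34 by 1.01 on the log2 scale (adjusted p = 3.10e-10, 3.85e-10 and 7.00e-06). Mrpl58 changed by 0.91, Mrps30 by 0.84, Mrpl41 by 0.71, Mrpl10 by 0.65 and Mrpl44 by 0.61, and each passed the test. In the Mrps18 family Mrps18a rose by 0.84 (adjusted p = 3.71e-09) and Mrps18b by 0.61 (adjusted p = 6.51e-05). Mrps18c had 5.19, 3.89 and 3.81 CPM in EZH2i libraries, against 5.52, 4.56 and 3.82 CPM in DMSO libraries, with a log2 fold change of -0.10 (SE 0.187, adjusted p = 0.639), so it passed the test in neither comparison. Mrps36 did not pass it either (log2 fold change 0.26, adjusted p = 0.611).

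A few genes went down with the inhibitor. Mrpl1, the protein of the L1 stalk where spent tRNA leaves, had 14.6, 15.2 and 15.03 CPM in EZH2i libraries, against 24.5, 25.8 and 25.8 CPM in DMSO libraries. All EZH2i libraries were below all DMSO libraries by a wide gap, and the log2 fold change was -0.76 (SE 0.0917, adjusted p = 2.45e-07). Mrpl50, a large-subunit protein, had 35.3, 29.7 and 33.2 CPM in EZH2i libraries, against 53.03, 50.9 and 55.1 CPM in DMSO libraries (log2 fold change -0.69, SE 0.0843, adjusted p = 2.79e-07). Mrpl47, the relative of bacterial L29, had 23.4, 17.5 and 19.6 CPM in EZH2i libraries, against 27.2, 23.4 and 27.0 CPM in DMSO libraries. The groups of Mrpl50 did not overlap, whereas those of Mrpl47 met at their edges (log2 fold change -0.35, SE 0.110, adjusted p = 0.00699). Mrps31 of the small subunit had 18.8, 15.7 and 20.2 CPM in EZH2i libraries, against 22.2, 24.0 and 22.1 CPM in DMSO libraries (log2 fold change -0.32, SE 0.104, adjusted p = 0.00955), with no overlap, and without EZH2i replicate 2 the log2 fold change was -0.22 (adjusted p = 0.0593). Mrps22, also of the small subunit, had a log2 fold change of -0.19 and did not pass the test (adjusted p = 0.0829), but did without EZH2i replicate 1 (-0.30, adjusted p = 0.00507).

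**Figure D4:**
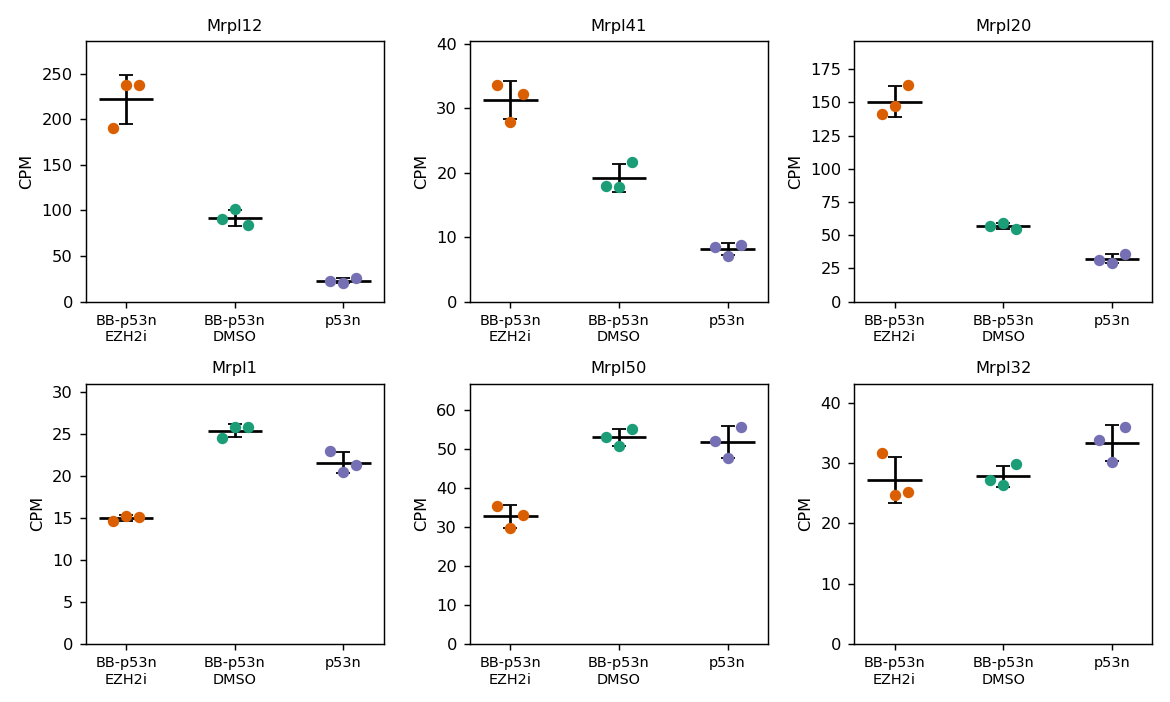
Levels (CPM) of 6 genes in each library of the 3 groups, as points, with the mean and SD of 3 libraries as bars. Mrpl12, Mrpl41 and Mrpl20 step up to the left, with Mrpl12 at 191 to 238 CPM in BB-p53n EZH2i, 83.7 to 101 CPM in BB-p53n DMSO and 20.8 to 25.6 CPM in p53n libraries, whereas Mrpl1 and Mrpl50 are lowest in BB-p53n EZH2i, and Mrpl32 has its highest mean in p53n libraries.

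The composition of a transcript went with its change under the inhibitor across the genome. Over 12786 genes with an average log2 CPM above 1, the log2 fold change of EZH2i over DMSO had a Spearman correlation of 0.73 with GC content and -0.428 with exon length, and over the 77 members these were 0.586 and -0.312 (descriptions across genes that share libraries). Members had a median GC content of 49.7%, near the 49.4% of those genes, but a median exon length of 2533 bases, against 4545.5 bases. Among 5924 tested genes within the 10th to 90th percentile of the members' GC content (42.3% to 56.3%) and length (1010 to 6663 bases), 48.8% rose and 29.4% fell under EZH2 inhibition, with a median log2 fold change of 0.22. With the GC and length trend of each library removed, 48 members were called higher and 4 lower, against 28.3% and 29.2% of all genes tested, and the members' median was 0.30. Of the genes called both with and without this step, 44 kept their direction and 4 turned to lower, Mrpl34, Mrpl21, Mrps15 and Mrpl18. With the trend taken from each gene's principal transcript instead, a setting chosen after seeing the data, 43 members were higher and 3 lower, against 28.3% and 26.9% of all genes tested.

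Single genes moved more than the count. With the trend removed, the log2 fold changes were 1.21 for Mrpl20, 0.36 for Mrpl28, 0.29 for Mrpl14, 0.40 for Mrpl12 and 0.40 for Mrps24, and all 5 were still called higher. None of the 4 genes that had fallen was called: Mrpl1 was at 0.15, Mrpl50 at -0.04, Mrpl47 at 0.10 and Mrps31 at 0.12. Of the members with a particular role, Mrps30 (2.08), Mrpl11 (0.98), Mrpl58 (0.70) and Mrps18a (0.17) were still called higher, and Mrps12 (0.13), Mrps34 (0.10), Mrpl41 (0.06), Mrpl44 (0.05), Mrpl10 (0.04) and Mrps18b (0.01) were not. The members' remaining values had a Spearman correlation of -0.628 with GC content and 0.637 with length, of opposite sign to those before, so the removal went past the members' own trend. For PDGF-BB the correlations were weaker, at 0.445 with GC content and -0.437 with length over the members and 0.139 and -0.065 over the 12786 genes. There, with the trend removed, 49 members were higher and 5 lower, against 31.7% and 39.9% of all genes tested, with a median of 0.31, and Mrpl12 (1.85), Mrps34 (1.06), Mrpl38 (1.04) and Mrpl41 (0.97) were still called, whereas Mrpl11 (0.14) and Mrps30 (0.41) were not.

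**Figure D5:**
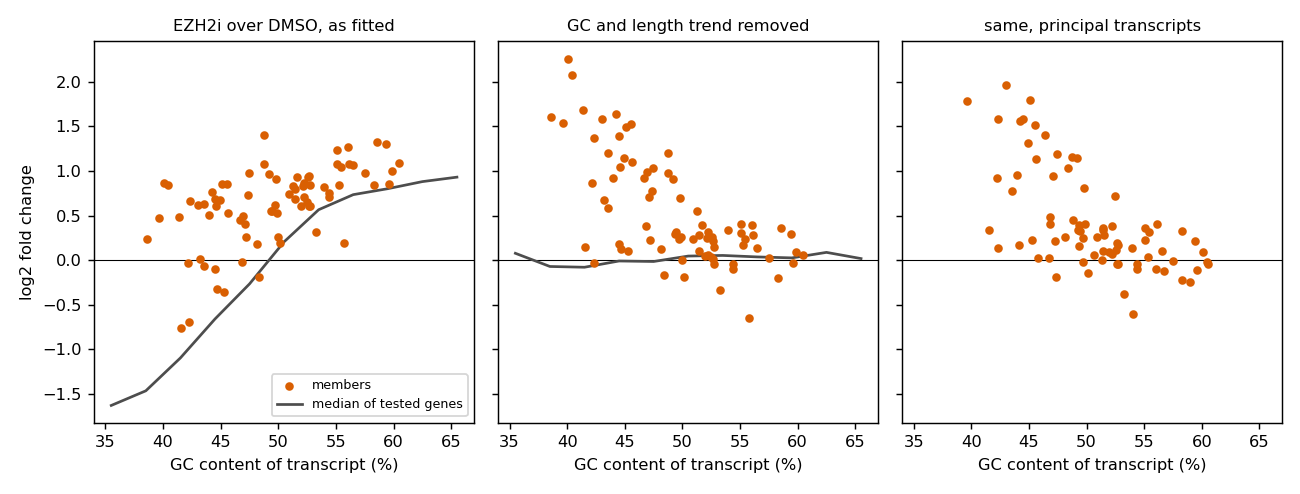
Log2 fold change of BB-p53n EZH2i over BB-p53n DMSO against the GC content of the transcript (%), as fitted (left), with the GC and length trend of the longest transcript and all exons removed (middle) and with that of the principal transcript removed (right). Orange points are the 77 members, and the grey line, drawn on the left and in the middle only, is the median of tested genes in bins of GC content. The members' Spearman correlation with GC content is 0.586 on the left and -0.628 in the middle.

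The direct comparison of BB-p53n EZH2i with p53n, which the study does not name, shares its libraries with the comparisons above and is given beside them. There 69 genes were higher, 4 lower and 4 not called, against 40.3% and 41.7% of all genes tested, and the median log2 fold change of the 77 was 1.14. At least 2-fold rises were called in 45, against 22.1% of all genes tested. The largest changes were those of Mrpl12 (3.28, a fold of 9.69), Mrps34 (2.26), Mrpl20 (2.22), Mrpl54 (2.10) and Mrpl38 (2.07). The genes called lower were Mrpl50 (-0.66), Mrpl1 (-0.53), Mrps31 (-0.33) and Mrpl32 (-0.29). Without EZH2i replicate 2 or p53n replicate 3 neither Mrps31 (adjusted p = 0.0607 and 0.0521) nor Mrpl32 (adjusted p = 0.0790 and 0.0881) was called, nor was Mrpl32 without EZH2i replicate 3 (adjusted p = 0.0978). With the GC and length trend removed, 65 genes were higher and 3 lower, against 35% and 43.3% of all genes tested, with a median of 0.71, but the genes called lower were others. They were Mrps15 (-0.39), Mrpl21 (-0.30) and Mrpl34 (-0.20), all called higher before that step. Mrpl1 (0.46) and Mrpl32 (0.66) were then called higher, and Mrpl50 (0.02) and Mrps31 (0.02) were not called.

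Mrpl1 and Mrpl47 were the members called in opposite directions by the first and second comparisons, which share the DMSO libraries. Mrpl1 had a log2 fold change of -0.76 for EZH2i over DMSO and 0.23 (SE 0.0883, adjusted p = 0.0242) for DMSO over p53n, and its libraries stood at 14.6 to 15.2 CPM in EZH2i, 24.5 to 25.8 CPM in DMSO and 20.4 to 22.9 CPM in p53n. The smaller change was called in fewer settings: without p53n replicate 2 or without DMSO replicate 2 or 3 its adjusted p was 0.0803, 0.0584 and 0.0648. The larger change depended on composition: with the GC and length trend removed it was 0.15 and not called (adjusted p = 0.220), and with that of the principal transcript it was 0.34 and called higher (adjusted p = 0.00820). Mrpl47 had log2 fold changes of -0.35 and 0.43 (SE 0.109, adjusted p = 0.00152), and 24.2% of its exon bases are shared with Ndufb5 or Actl6a. With the trend removed its change under EZH2 inhibition was 0.10 and not called, so neither gene was then called in opposite directions. Other members were: Mrpl9, Mrpl24 and Mrpl32 were then lower with PDGF-BB and higher under EZH2 inhibition, and Mrpl18 and Mrps15 the other way round.

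Levels per length differed widely among members, although the ribosome holds its proteins in fixed numbers. In RPKM, which scales CPM by the length of all exons of a gene, the median over the 77 genes was 20.8 in BB-p53n EZH2i (range 0.512 to 145), 13.7 in BB-p53n DMSO (0.402 to 59.95) and 9.15 in p53n (0.301 to 37.0). The lowest value was that of Mrps36, which is no ribosomal protein, in BB-p53n EZH2i and p53n. In BB-p53n DMSO it was that of Mrpl23, whose fragments may be split with its pseudogene. The SD of the log2 level across genes was 1.53 in BB-p53n EZH2i, 1.34 in BB-p53n DMSO and 1.21 in p53n. The order of the genes was largely kept, with Spearman correlations of mean levels of 0.955 between EZH2i and DMSO, 0.951 between DMSO and p53n and 0.903 between EZH2i and p53n (n = 78 genes). With the length of the principal transcript in place of all exons the order of mean levels had a correlation of 0.801 with this one, so ranks depend on the length used. Levels do too: Mrpl33 averaged 2.62 RPKM over the 9 libraries with all exons and 40.1 RPKM with the principal transcript. Mrps10 averaged 3.40 and 27.0 RPKM. The SD across genes was not computed with the principal transcript, so part of the spread may come from the length used.

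Mrpl12 was the highest in BB-p53n EZH2i, in BB-p53n DMSO and in the mean over the 9 libraries, but ranked only 24th in p53n, at 145 ± 17.6 RPKM in BB-p53n EZH2i, 59.95 ± 5.72 RPKM in BB-p53n DMSO and 14.9 ± 1.59 RPKM in p53n (SD, n = 3 each). Mrps7, the relative of bacterial S7 in the head of the small subunit, followed at 92.5 ± 11.8 RPKM in BB-p53n EZH2i, 45.0 ± 1.41 RPKM in BB-p53n DMSO and 37.0 ± 1.65 RPKM in p53n. Mrpl28 came next, at 105 ± 13.8 RPKM in BB-p53n EZH2i, 41.9 ± 1.43 RPKM in BB-p53n DMSO and 27.4 ± 1.71 RPKM in p53n. Averaged over the 9 libraries of the 3 groups Mrps7 (58.2 RPKM) and Mrpl28 (58.0 RPKM) were nearly equal, and Mrpl12 stood at 73.3 RPKM. By group, the mean of Mrps7 was above that of Mrpl28 in p53n and BB-p53n DMSO and below it in BB-p53n EZH2i. With the length of the principal transcript Mrpl20 (105 RPKM) stood above Mrpl12 (85.3 RPKM) in that mean, so the first place depends on the length used. At the low end were Mrpl53 without counts, Mrps36 (0.416 RPKM) and Mrpl23 (0.555 RPKM).

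The typical member was best shown by Mrpl16, a large-subunit protein with a bacterial relative. Its log2 CPM pattern over the 9 libraries differed from the members' median pattern by a root mean square of 0.0619, the smallest of all, followed by Mrpl49 (0.0780) and Mrpl37 (0.0800). Mrpl16 had 53.4, 60.9 and 58.1 CPM in BB-p53n EZH2i, 32.8, 39.9 and 38.6 CPM in BB-p53n DMSO, and 25.8, 25.6 and 26.7 CPM in p53n libraries. The farthest from that pattern were Mrpl12 (0.904), Mrpl50 (0.765) and Mrpl1 (0.722). These distances were taken with the GC and length trend left in. With it removed, Mrpl16 changed by 1.21 under EZH2 inhibition, against a members' median of 0.30. With that of the principal transcript it changed by 0.45, against 0.25. Its place as typical thus holds only for values with the trend left in.

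Proteins of the mitochondrial ribosome with other names were read beside them. Of 5, Chchd1 (log2 fold change 0.74, adjusted p = 3.55e-06) and Gadd45gip1 (0.82, adjusted p = 0.00166) rose in BB-p53n DMSO relative to p53n libraries, and Dap3 (-0.02), Aurkaip1 (0.16) and Ptcd3 (0.10) did not pass the test. Under EZH2 inhibition Aurkaip1 rose by 1.15, Gadd45gip1 by 0.89, Dap3 by 0.88 and Chchd1 by 0.66, whereas Ptcd3 had a log2 fold change of -0.94 (adjusted p = 8.89e-10), which with the GC and length trend removed was 0.11 and not called. Gadd45gip1 (0.16) was not called under EZH2 inhibition after that step either, and Dap3 (-0.22) was then called lower with PDGF-BB. Dap3, Ptcd3, Chchd1 and Aurkaip1 encode small-subunit proteins and Gadd45gip1 a large-subunit protein.

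Genes that build the ribosome or modify its rRNA went in both directions with PDGF-BB, in shares near those of all genes tested. Of 26 assembly and rRNA modification genes, 10 rose and 8 fell in BB-p53n DMSO relative to p53n (median 0.14), where 35.3% and 34% of all genes tested did so, with the smallest adjusted p for Mettl17, an assembly factor of the small subunit (-0.96, adjusted p = 5.87e-07). Under EZH2 inhibition 22 rose and 3 fell (median 0.71), against 37.3% and 35.6% of all genes tested, with the smallest for Dhx30, an RNA helicase (0.74, adjusted p = 1.68e-09). Once the GC and length trend was taken out, 14 rose and none fell, against 28.3% and 29.2% of all genes tested, and with PDGF-BB 7 rose and 9 fell, against 31.7% and 39.9%. Mettl17 averaged 14.97 CPM in BB-p53n EZH2i, 8.13 CPM in BB-p53n DMSO and 15.8 CPM in p53n.

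Of 15 translation factors and related genes, 5 rose and 6 fell in BB-p53n DMSO (median -0.08), and 5 rose and 5 fell under EZH2 inhibition (median -0.09), shares near the background of 35.3% and 34% with PDGF-BB and 37.3% and 35.6% under EZH2 inhibition. With the GC and length trend removed, 5 rose and 9 fell in BB-p53n DMSO (median -0.23), against 31.7% and 39.9% of all genes tested. Under EZH2 inhibition 6 then rose and 4 fell, against 28.3% and 29.2%. Tsfm, the exchange factor that recharges the elongation factor EF-Tu of mitochondria, averaged 74.6 CPM in BB-p53n EZH2i, 48.2 CPM in BB-p53n DMSO and 9.76 CPM in p53n. Its log2 fold change of 2.30 for BB-p53n DMSO over p53n (SE 0.0841, adjusted p = 2.09e-15) exceeded that of Mrpl12. Lrpprc, which stabilises mitochondrial mRNAs, fell under EZH2 inhibition (-1.03, adjusted p = 3.19e-10).

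Of 12 genes for replication, transcription and RNA processing of mitochondrial DNA, 5 rose and 3 fell with PDGF-BB (median -0.04, where 35.3% and 34% of all genes tested were called), the smallest adjusted p being that of Elac2, a tRNA 3′ processing enzyme (0.63, adjusted p = 3.93e-08). Under EZH2 inhibition 6 rose and 5 fell (median 0.04, against 37.3% and 35.6% of all genes tested), with the smallest for Polrmt, the mitochondrial RNA polymerase (0.94, adjusted p = 2.88e-09). With the GC and length trend removed, 4 rose and 5 fell with PDGF-BB, against 31.7% and 39.9% of all genes tested. Under EZH2 inhibition 5 then rose and 3 fell, against 28.3% and 29.2%. Of 10 regulators of mitochondrial genes, 7 rose and 2 fell with PDGF-BB (median 0.40), led by the coactivator Pprc1 (1.44, adjusted p = 4.61e-12), and 3 rose and 5 fell under EZH2 inhibition (median -0.39), with the smallest adjusted p for Gabpb2, a partner of GABPA (-1.17, adjusted p = 4.74e-11). Over all genes tested, the shares were those given for the preceding list. With the trend removed, 6 rose and 2 fell with PDGF-BB, against 31.7% and 39.9% of all genes tested. Under EZH2 inhibition 2 then rose and 6 fell, against 28.3% and 29.2%, and Gabpb2 (-0.14) was no longer called. The factors whose words were searched in the promoters, named here after their values were seen, had log2 fold changes under EZH2 inhibition of 0.32 for Nrf1, -1.72 for Gabpa and -0.72 for Yy1, and with PDGF-BB of 0.64, -0.37 and 0.41. With the trend removed they were 1.14, -0.69 and -0.79 under EZH2 inhibition and 0.57, -0.26 and 0.21 with PDGF-BB, and with the trend of the principal transcript Nrf1 was at -0.17 under EZH2 inhibition, so its direction depends on the transcript used.

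The RNAs that the mitochondrial ribosome translates or contains were mostly lower in the same comparisons. Of the 13 mRNAs of the mitochondrial genome 10 fell and none rose in BB-p53n DMSO relative to p53n libraries (median -1.16). Of all genes tested 34% fell and 35.3% rose there. The smallest adjusted p was that of mt-Co3, a subunit of cytochrome c oxidase (-1.69, adjusted p = 9.36e-13). Under EZH2 inhibition 12 fell and none rose (median -0.98), against 35.6% and 37.3% of all genes tested. The smallest adjusted p was that of mt-Nd5, a subunit of complex I (-1.32, adjusted p = 2.83e-10). With the GC and length trend removed, 9 fell and none rose with PDGF-BB, against 39.9% and 31.7% of all genes tested. Under EZH2 inhibition 2 then rose and 3 fell, against 28.3% and 29.2%, the median was 0.00 and mt-Nd5 (-0.04) was not called. The rRNAs of the mitochondrial ribosome both fell with PDGF-BB: mt-Rnr1, of the small subunit, had a log2 fold change of -0.41 (adjusted p = 1.72e-05) and mt-Rnr2, of the large subunit, of -0.94 (adjusted p = 1.38e-08). With the trend removed only mt-Rnr2 (-0.47) was still called lower, and mt-Rnr1 was at 0.03. Under EZH2 inhibition mt-Rnr1 rose by 0.61 (adjusted p = 7.64e-08) and mt-Rnr2 was at -0.02 (adjusted p = 0.874), whereas with the trend removed both were called higher, at 1.95 and 1.38. Libraries of polyadenylated RNA capture these short-tailed rRNAs only in part.

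Genes of the cytosolic ribosome mostly rose under EZH2 inhibition as well, but not with PDGF-BB. Of 85 such genes, 80 were tested. With PDGF-BB 11 rose and 17 fell (median -0.06), against 35.3% and 34% of all genes tested, the smallest adjusted p being that of Rps24 (-0.79, adjusted p = 6.33e-08). Under EZH2 inhibition 58 rose and 5 fell (median 0.68), against 37.3% and 35.6% of all genes tested, with the smallest for Rps14 (1.45, adjusted p = 3.32e-11). With the GC and length trend removed, 35 rose and 5 fell under EZH2 inhibition (median 0.24), against 28.3% and 29.2% of all genes tested, and 8 rose and 38 fell with PDGF-BB (median -0.25), against 31.7% and 39.9%. The difference between the cytosolic and mitochondrial genes was not tested, and cytosolic ribosomal protein genes have many processed copies that can take their fragments.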

How the data were processed

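Libraries were made from 500 ng total RNA with the Kapa mRNA HyperPrep kit, and the authors deposited a single table with 1 unnormalized fragment count for each gene and library. Per the file headers, featureCounts 1.6.3 counted over exons (Ensembl 108, GRCm39) with mapping quality 20 as the minimum and no strand option, so overlapping genes on opposite strands cannot be told apart. The submitters' processing notes also list Trimmomatic and Subread, with versions not given in the sources used here. Gene symbols (91.4% of identifiers) and GC content were joined by identifier to GENCODE on GRCm38. Table coordinates are GRCm39.

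Genes were kept with filterByExpr (17001) and scaled with TMM, and 1 quasi-likelihood model with robust estimation and group as the only term was fitted to all 9 libraries in edgeR 4.0.16 (R 4.3.3). Adjusted p-values are Benjamini-Hochberg values of that test over all genes, and CPM are TMM-scaled. RPKM use the length of all exons of a gene. The GC and length trend was removed per library with a spline on the GC content of the longest transcript and on exon length. A gene's neighbours are the other tested genes within 1 Mb. Libraries of a group differed by more than sampling noise (median chi-square per gene 1.39 to 4.23). The labels do not say that replicate numbers pair the libraries, so the model held no replicate term. The scripts were tested on simulated counts. DESeq2 1.42.0, other scalings and filters, a replicate block and leaving out each library were tried. Floors cover counting error only.

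The members and gene lists were chosen with earlier results of these data known, so no test was made over a list. Genes named were, by rule, the 5 highest and 5 lowest members per comparison (average log2 CPM 1 or more), members called in opposite directions, the 3 highest and 3 lowest in RPKM, members with a known particular role, mitoribosomal proteins of other names, the called gene with the smallest adjusted p of each pathway list in the first and second comparisons, and the 3 nearest the members' median pattern. Other genes named were chosen after their values were seen: those in accounts of chromosomes, overlaps and promoters, and those that turned when a trend was removed. The NRF1 word was shortened by a base after counts with the longer word were known, and more members then matched. Proteins were not used here.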

Additional observations from a re-analysis of the deposited data

How the results depend on the processing

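The numbers of members called higher stayed within 1.5 times under every setting run, from 44 to 64 for PDGF-BB, except under EZH2 inhibition with the trend of the principal transcript removed (chosen after seeing the data), which left 43 higher and 3 lower, against 28.3% and 26.9% of all genes tested. The 44 came with upper-quartile scaling, where 29% of all genes tested were called higher with PDGF-BB. The 64 came without genes of the X, Y and mitochondrial chromosomes, where 38.5% were. With 1 library left out, 52 to 63 members were higher for PDGF-BB, 63 to 65 under EZH2 inhibition and 68 to 69 for BB-p53n EZH2i over p53n. Of all genes tested 32.5% to 36.4%, 34.1% to 36% and 38.2% to 39% were then called higher in these comparisons. Upper-quartile scaling moved the median of all genes for PDGF-BB to -0.16, with the members at 0.27, and leaving out genes of the X, Y and mitochondrial chromosomes put the members' median at 0.50. The 1 member called lower with PDGF-BB became 4 with RLE size factors, 5 with upper-quartile scaling, 4 with totals only, 0 with no filter, 5 with the GC and length trend removed, 4 with that of the principal transcript, 0 without genes of X, Y and mitochondrial chromosomes, and 0 to 2 with a library left out (2 without p53n replicate 2 or BB-p53n DMSO replicate 3, 0 without any other library of the comparison). Of all genes tested, 4862 to 6967 were called lower with PDGF-BB under these settings. For BB-p53n EZH2i over p53n the 4 lower became 2 to 4, with 2 left without EZH2i replicate 2 or without p53n replicate 3. In those 2 settings 7275 of 17814 and 6987 of 17578 genes tested were called lower. DESeq2 called 54 higher and 1 lower for PDGF-BB and 64 and 4 under EZH2 inhibition. Of all genes it tested, 23.4% were called higher for PDGF-BB and 26.8% under EZH2 inhibition. It called 5909 of 24299 and 6109 of 23039 genes lower.

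Among mitochondrial ribosomal protein genes called without these changes of setting, direction turned only where a GC and length trend was removed. For genes that had fallen and turned, the log2 fold changes under EZH2 inhibition were then 0.15 for Mrpl1, 0.10 for Mrpl47, 0.12 for Mrps31 and 0.11 for Ptcd3, and for BB-p53n EZH2i over p53n 0.46 for Mrpl1, 0.66 for Mrpl32, 0.0152 for Mrpl50, 0.0242 for Mrps31 and 0.28 for Ptcd3. Rises turned too. Under EZH2 inhibition Mrps15 (-0.65), Mrpl21 (-0.33), Mrpl34 (-0.20) and Mrpl18 (-0.19) were then called lower. Mrps28 (-0.10), Mrpl46 (-0.05), Mrpl40 (-0.04), Mrpl38 (-0.03) and Mrps2 (-0.000545) were below 0 without a call. For BB-p53n EZH2i over p53n, Mrps15 (-0.39), Mrpl21 (-0.30) and Mrpl34 (-0.20) were called lower. With the principal transcript the log2 fold changes of genes that turned included, under EZH2 inhibition, 0.34 for Mrpl1, 0.22 for Mrpl47, 0.17 for Mrps31, 0.14 for Mrpl50, -0.0939 for Mrps18a, -0.0406 for Mrps18b and -0.0446 for Mrps34, and for BB-p53n EZH2i over p53n 0.74 for Mrpl1, 0.78 for Mrpl32, 0.24 for Mrpl50, 0.11 for Mrps31 and 0.00272 for Ptcd3. The trend removed depends on which transcript stands for a gene.

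The labels do not say that same-numbered libraries are paired. Correlations of their deviations were 0.353, 0.28 and -0.008 between EZH2i and DMSO and -0.217 to 0.058 between the other groups. Crossing replicates 1 and 2 of EZH2i and DMSO gave -0.316 and -0.319, and differently numbered libraries of the other groups gave -0.23 to 0.274. Whether the numbers pair EZH2i with DMSO libraries was not settled by these values. With a replicate block 60 members were higher and 1 lower for PDGF-BB, 65 and 4 under EZH2 inhibition and 69 and 4 for BB-p53n EZH2i over p53n. Of the 17001 genes tested, 35.1%, 36.9% and 40% were called higher with the block in these comparisons, and 5703, 5996 and 7054 genes lower. The block with the GC and length trend removed gave 6 lower for PDGF-BB, against 6676 of 17001 genes tested, and turned Mrpl1 (0.15), Mrpl47 (0.0946), Mrps31 (0.12) and Ptcd3 (0.10) under EZH2 inhibition and Mrpl1 (0.46), Mrpl32 (0.66), Mrpl50 (0.0152), Mrps31 (0.0234) and Ptcd3 (0.27) for BB-p53n EZH2i over p53n.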
